A study of Labrus bergylta with 24 samples.

Results

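The transcripts described here are those for which ballan wrasse fed soyasaponin alone stood apart from the fish on the other 3 diets. Ballan wrasse (*Labrus bergylta*) is a stomachless marine fish kept as a cleaner fish in salmon farming, and its hindgut, the distal intestine, was sampled for RNA sequencing from 24 fish. After 4 weeks of acclimatization on the reference diet, 6 fish each had received for 5 weeks the reference diet (control), that diet with 0.4% of a commercial prebiotic, Aquate SG (prebiotic), with 0.7% soyasaponin (soyasaponin), or with both additions (combined). Each diet was given to 2 tanks, and since no label says which tank a fish came from, tank and diet cannot be told apart. The labels state neither age, sex nor strain, and the tests take the 6 fish of a diet as independent, although fish of 1 tank may be alike.

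Members were chosen from the measured values themselves. For each of the 12463 transcripts with a mean of at least 50 normalized counts, of 20751 in all, the 4 diet medians of log2(normalized count + 1) were put in order and the widest gap between neighbours was found. The widest gap set soyasaponin apart in 1134 transcripts. These were ranked by a score, the gap divided by the pooled within-diet SD (20 degrees of freedom). The 75 of highest score with soyasaponin above the other diets and the 75 with soyasaponin below them make the 150 members. The difference between soyasaponin and the other diets is therefore a property of the choice and is given below as a description, without a test. All 150 members also passed the lower filter used for the fits, a mean of at least 10 over all fish. Gaps and their fold differences compare medians of log2(normalized count + 1). Medians printed in normalized counts were taken without the log, so their ratios can differ from the fold of the gap.

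Soyasaponins are triterpenoid glycosides of soybean, amphiphilic compounds that can interact with cholesterol in cell membranes and are studied for their part in the intestinal inflammation that soybean meal causes in salmonid fish. The hindgut of fish takes up macromolecules and holds many immune cells. Prebiotics are feed ingredients that gut microbes, rather than the fish, break down. Bulk RNA cannot tell fewer cells of a type from less RNA per cell. The deposited identifiers, which begin with LABE_, are paired with no gene names: 0 of 20751 matched the RefSeq gene table of the assembly fLabBer1.1. Members are therefore given by identifier for the leading ones and by rank for the rest, no role or sequence is given for any of them, and the markers of hindgut tissue were not examined.

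Of the 4 diets, soyasaponin was the one set apart least often. The widest gap separated soyasaponin in 9.10% of the 12463 transcripts, against 1611 (12.9%) for the combined diet, 3039 (24.4%) for control and 3441 (27.6%) for prebiotic. In the other 3238 (26.0%) it split the diets into pairs. Soyasaponin was the highest diet in 595 of its transcripts and the lowest in 539. The median scores of its top transcripts were lower than those of the control and prebiotic lists. The lowest scores in the control and prebiotic lists were 1.66 to 1.73, so the ranges overlapped. Among the 75 members with soyasaponin highest the median score was 1.13 (range 0.961 to 1.84), and among the 75 with it lowest 1.47 (1.15 to 2.84). The 75 top transcripts chosen the same way for control had median scores of 1.90 and 1.95 (diet highest and lowest), those for prebiotic 1.96 and 1.87, and those for combined 1.64 and 1.48. No test was made between these lists, which share the same 24 fish. Principal components were taken over the 17056 transcripts with a mean of at least 10. On the first (31.5% of variance) prebiotic replicates 4 and 5 lay farthest to one side, at 0.439 and 0.422. The next fish on that side was prebiotic replicate 2, at 0.319. Values without prebiotic replicates 4 and 5 are given beside the tested contrasts and the counts of members chosen again.

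**Figure D1:**
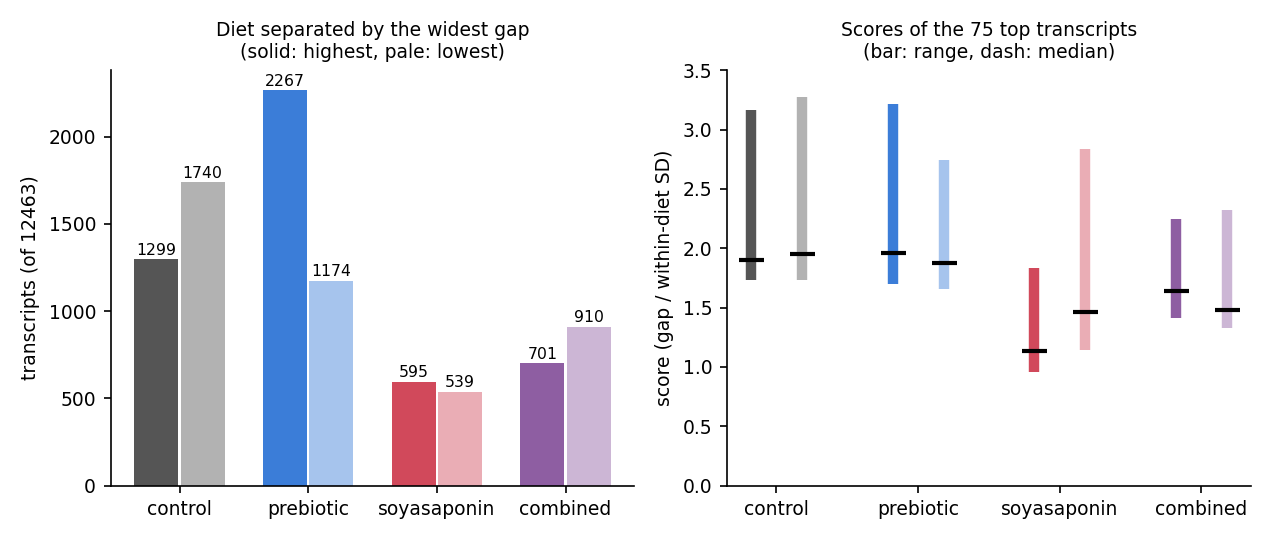
Left, number of transcripts (of 12463) whose widest gap between diet medians separates each diet, solid where it is the highest diet and pale where it is the lowest. Right, score (gap divided by within-diet SD) of the 75 top transcripts of each kind, with the bar from lowest to highest and a dash at the median. Soyasaponin has the lowest numbers (595 and 539) and, where it is the highest diet, the lowest median score (1.13).

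With soyasaponin highest, the gap to the nearest diet was small in most members. Its median was 0.29 on the log2 scale, a 1.22-fold difference between medians, and it ran from 0.08 to 3.34. In 7 of the 75 it was at least 2-fold, and in 29 it was under 0.25 on the log2 scale. The members had means of 50.5 to 4819 normalized counts with a median of 292, close to the 238 of all eligible transcripts. They fell into the lower, middle and upper terciles of abundance in numbers of 24, 22 and 29. At the edge of the list, the last member had a score of 0.961 with a gap of 0.20, and the first transcript left out had 0.959 with a gap of 0.87.

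LABE_00064370-RA had the highest score in this list, 1.84. Soyasaponin fish held 336 to 503 normalized counts with a median of 473. The medians were 312 in control (287 to 376), 252 in prebiotic (221 to 458) and 318 in combined fish (279 to 538). A total of 4 soyasaponin fish lay between 470 and 503, while replicates 2 and 3, at 336 and 343, lay within the range of all 3 other diets. One combined fish, at 538, exceeded all soyasaponin fish and the highest prebiotic fish, at 458, lay inside their range, so soyasaponin overlapped each other diet. The gap of 0.57 on the log2 scale stood beside a within-diet SD of 0.31.

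LABE_00077157-RA, the second member, had a score of 1.64 and a gap of 1.12 on the log2 scale, a 2.18-fold difference from control as the nearest diet, with a within-diet SD of 0.68. The soyasaponin median was 577 normalized counts (284 to 649). It was 281 in control (148 to 392), 195 in prebiotic (97.3 to 481) and 256 in combined fish (221 to 767). Control fish fell into 2 sets here, with replicates 1 to 3 between 148 and 185 and replicates 4 to 6 between 376 and 392. These sets are the lower-numbered and the higher-numbered run of fish titles of that diet. The highest fish of all was on the combined diet, and soyasaponin replicates 4 and 6, at 284 and 331, stood among the controls.

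Further down the list the size of the gap and the steadiness of the transcript varied widely. The third-ranked member had medians of 109 normalized counts in soyasaponin fish (8.37 to 333) and 7.10, 14.9 and 2.16 in control, prebiotic and combined fish, with a within-diet SD of 1.78. The fourth-ranked member had the smallest within-diet SD of the list, with medians of 3936 in soyasaponin and 3497 to 3634 on the other diets, a gap of only 1.08-fold beside an SD of 0.08. The sixth-ranked member stood at 2342 in soyasaponin fish (1418 to 3740), against 1015, 1101 and 1269 in control, prebiotic and combined fish, and 4 of the 6 soyasaponin fish exceeded all 18 others. The widest gap in the list, 10.2-fold, belonged to the member of rank 33. Its soyasaponin median was 112 normalized counts, but soyasaponin replicate 4 held 0 reads, as did 4 fish of the other diets, and combined replicates 1 and 2 held 128 and 162. A library with 0 reads allows up to 3, counting error only.

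With soyasaponin lowest, gaps were wider. The median gap was 0.48 on the log2 scale, a 1.39-fold difference, with a range of 0.11 to 7.84, and 36 of the 75 had a gap of at least 0.5 against 19 of the 75 with soyasaponin highest. A 2-fold gap was reached by 5 members. Mean abundance ran from 51.0 to 9706 normalized counts with a median of 202, with 30, 20 and 25 members in the lower, middle and upper terciles. The last member had a score of 1.15 with a gap of 0.55, and the first transcript left out 1.14 with a gap of 0.49.

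LABE_00028772-RA had the highest score of all 150 members, 2.84. Its soyasaponin median was 64.1 normalized counts (55.8 to 117), with 126 in control (107 to 172), 130.0 in prebiotic (89.0 to 187) and 122 in combined fish (111 to 131). A total of 5 soyasaponin fish, at 55.8 to 72.8, lay below all 18 other fish, and replicate 3, at 117, lay among them. The 3 other medians lay within 0.09 of each other on the log2 scale, against a gap of 0.92. Combined fish, which ate the same 0.7% of soyasaponin, spanned only 111 to 131.

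LABE_00059853-RA, the second member, was abundant, with a score of 2.54 and a gap of 1.26 on the log2 scale (2.40-fold). Soyasaponin fish held 800.0 to 1715 normalized counts with a median of 943. The median was 2447 in control (1966 to 5446), 2465 in prebiotic (1129 to 3038) and 2276 in combined fish (1522 to 3170). Soyasaponin and control fish did not overlap. Prebiotic replicate 4, at 1129, was the one prebiotic fish inside the soyasaponin range, and combined replicate 2, at 1522, the one combined fish.

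**Figure D2:**
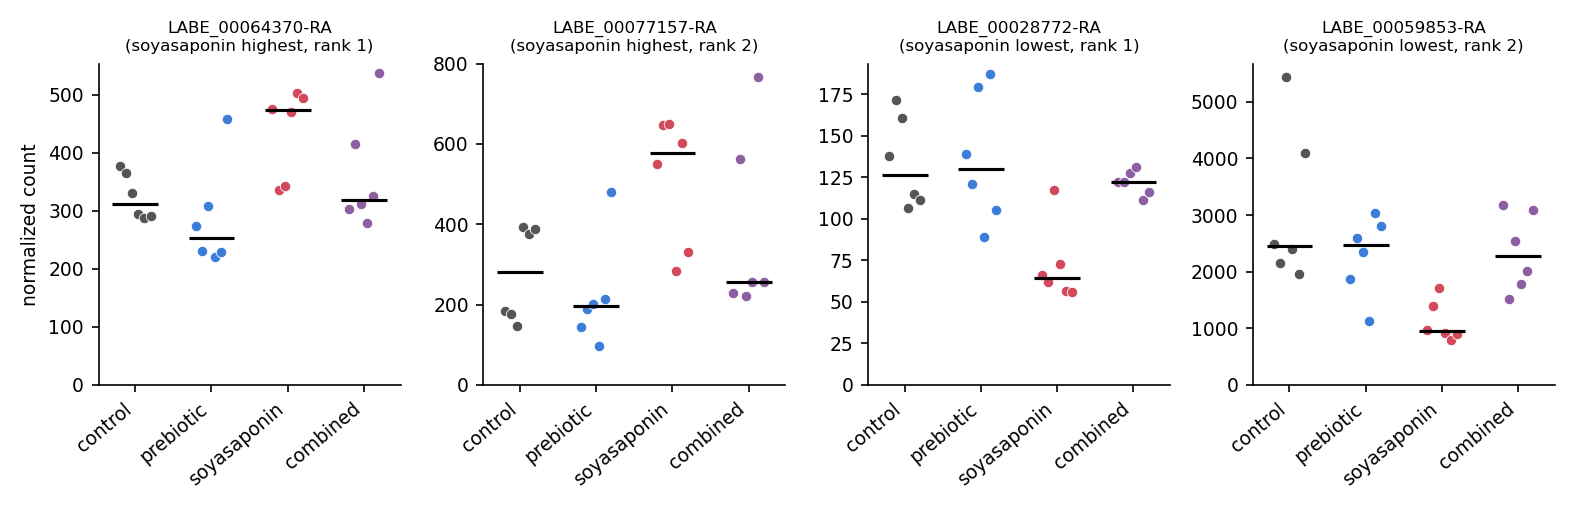
Normalized counts (y axis, from 0) of the leading pair of members in each direction, one point per fish (n = 6 per diet) with a line at the diet median. In LABE_00028772-RA 5 of 6 soyasaponin fish lie below all others, while in LABE_00064370-RA and LABE_00077157-RA soyasaponin fish overlap each other diet.

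Several other members with soyasaponin lowest followed LABE_00059853-RA from fish to fish. The correlation of within-diet deviations over the 24 fish, which share libraries and scaling, was 0.95 with the eighth-ranked member, 0.94 with the tenth and 0.91 with the member of rank 24. A total of 6 members exceeded 0.8 with it. The eighth-ranked member was the most abundant of the list, with a median of 5091 normalized counts in soyasaponin fish (4142 to 8198) and 9533, 11115 and 10490 in control, prebiotic and combined fish. The tenth-ranked stood at 1488 (1348 to 2659) against 2708, 3416 and 3301. In both, control replicate 3 was the highest fish, at 22092 and 5936, as it was for LABE_00059853-RA, and prebiotic replicate 4 the lowest outside the soyasaponin diet, at 5539 and 1775. Their values are therefore not separate observations of the diet. LABE_00064370-RA and LABE_00077157-RA had no such partners: their closest member reached 0.58 and 0.63.

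The third-ranked member with soyasaponin lowest was either abundant or nearly absent. Soyasaponin replicates 1 to 5 held 0 to 12.7 normalized counts and replicate 6 held 1068. Control replicate 2 (14.9), prebiotic replicate 4 (1.2) and combined replicates 2 and 4 (22.4 and 3.4) were also low, and the other 14 fish held 557 to 1952. The gap of 7.84 on the log2 scale and the within-diet SD of 3.35 were the largest of the 150 members. The low level was found in 5 of 6 soyasaponin fish and in 4 of the 18 others. A member with less extreme values, of rank 22, had 4 soyasaponin fish at 128 to 196 and 2 at 737 and 1067. Control replicates 3 and 5 (297 and 69.5) and prebiotic replicates 2 and 3 (217 and 134) were low there too, and the combined fish held 814 to 1369.

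As a set, members with soyasaponin lowest moved together between fish of the same diet more than those with soyasaponin highest. Over the 2775 pairs of members in a list, the median within-diet correlation was 0.15 with soyasaponin lowest and 0.03 with it highest, and -0.01 over all pairs of eligible transcripts. It exceeded 0.5 in 16.8%, 4.11% and 5.96% of pairs. In the lowest list 24 members had a partner above 0.8, and in the highest list 0. A single axis held 30.2% of the within-diet variance of the lowest list and 14.8% of that of the highest. These are descriptions over 24 fish. Correlations with the first principal component had medians of -0.15 with soyasaponin highest and -0.10 with it lowest, and 3 and 1 members exceeded 0.5 in size, against 2839 of 12463 eligible transcripts. With the second component (9.76% of variance) the medians were -0.15 and 0.35, and 8 and 14 members exceeded 0.5 in size, against 1445 of 12463. These correlations over all fish include the difference that the rule chose. Within diets the medians were -0.09 and -0.15 with the first component, where all eligible transcripts had -0.07. With the second they were 0.01 and 0.23, where all eligible transcripts had -0.05.

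**Figure D3:**
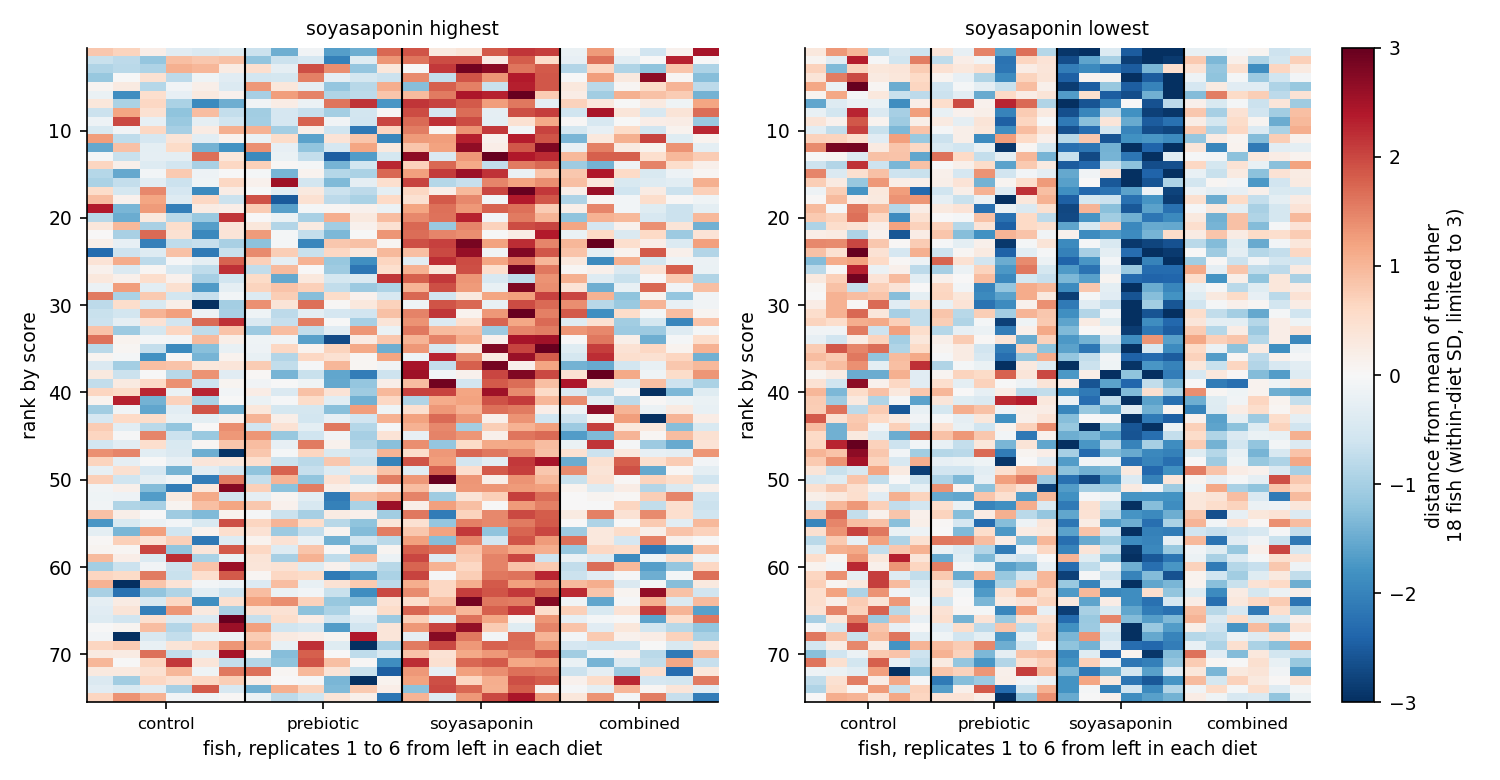
Each row is a member in order of score and each column a fish, 6 per diet. Colour gives the distance of log2(normalized count + 1) from the mean of the 18 fish not on soyasaponin, in units of the within-diet SD and limited to 3. Soyasaponin replicates 2 and 3 are paler in the right panel than the other 4, and prebiotic replicate 4 is blue in many rows there.

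Fish differed in how fully they showed the pattern. For each member the midpoint between the soyasaponin median and the nearest diet median was taken, and the members in which a fish lay on the soyasaponin side were counted. With soyasaponin highest, the counts were 45 to 67 of 75 in soyasaponin fish (replicates 2 and 4 lowest, at 45 and 46), 8 to 21 in control, 5 to 20 in prebiotic and 11 to 24 in combined fish. With soyasaponin lowest, 4 soyasaponin fish had 63 to 67, but replicates 2 and 3 had 37 and 27. Prebiotic replicate 4 had 41, more than either of them, while other prebiotic fish had 5 to 17, control fish 3 to 13 and combined fish 4 to 19. By the midpoint, 2 of the 6 soyasaponin fish thus carried the lower levels only in part, and 1 fish given no soyasaponin in 41 members. The order depended on the measure. Below the median of the 18 fish not on soyasaponin, soyasaponin replicates 2 and 3 lay in 55 and 67 members and prebiotic replicate 4 in 57. Since the medians that set the midpoints include these fish, the counts describe the lists and test nothing.

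**Figure D4:**
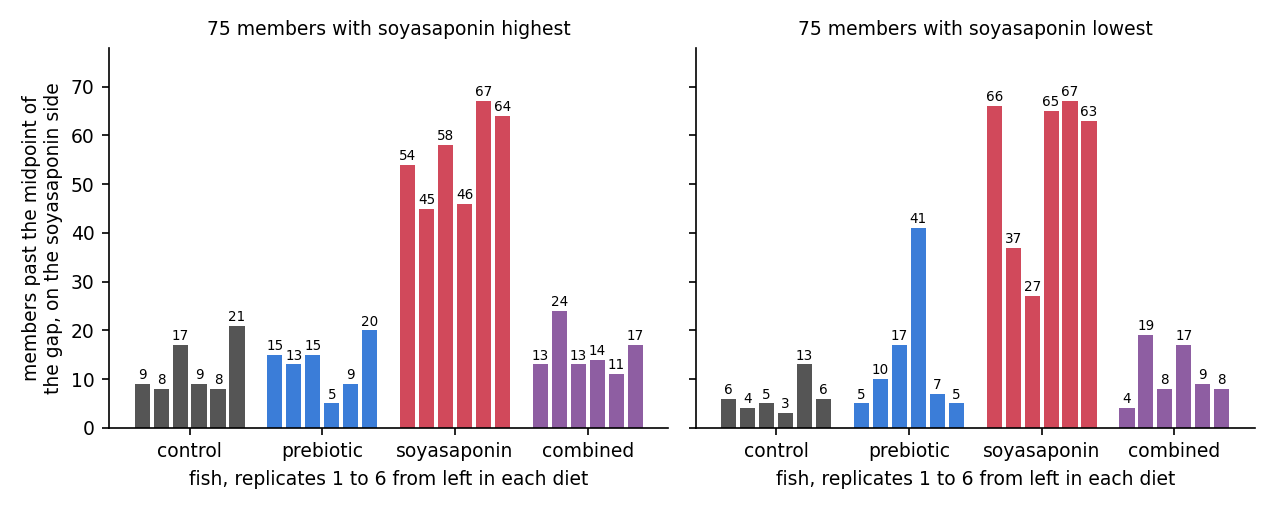
Bars give, for each fish, the number of the 75 members in which it lies past the midpoint of the gap on the soyasaponin side, left for soyasaponin highest and right for soyasaponin lowest. Prebiotic replicate 4 has 41 in the right panel, where soyasaponin replicates 2 and 3 have 37 and 27.

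In no member were all 6 soyasaponin fish beyond all 18 others, and the same held for all 12463 eligible transcripts. At least 1 soyasaponin fish lay beyond the 18 in 47 of 75 members with soyasaponin highest and in 60 of 75 with it lowest, and at least 4 did in 9 and 15. All 6 lay beyond the median of the 18 in 28 and 40 members. The rule favours such counts, and no share over all transcripts is given for them. Against single diets, soyasaponin fish lay wholly above control in 3 of the 75 members (0.505% of all 12463 eligible transcripts), above prebiotic in 5 (0.947%) and above combined in 2 (0.201%). They lay wholly below control in 9 of the 75 (0.826%), below prebiotic in 2 (0.441%) and below combined in 1 (0.0802%). The rule used these differences, so nothing is read from the counts. The numbers in the fish titles form 2 runs of 3 within each diet, and whether a run marks a tank is not stated. Control fish separated by run, with no overlap, in LABE_00077157-RA, in LABE_00064370-RA (330 to 376 and 287 to 294), in LABE_00028772-RA (138 to 172 and 107 to 115) and in the third-ranked member with soyasaponin highest (up to 2.48 and from 11.7 to 34.0). With soyasaponin highest the runs did not overlap in 9 of 75 members in control fish (9.68% of eligible transcripts), 5 in prebiotic fish (7.76%), 8 in soyasaponin fish (14.1%) and 8 in those on the combined diet (8.89%). With soyasaponin lowest the numbers were 7, 11, 18 and 5. What the run adds to the spread within a diet was not tested for single members. With soyasaponin highest, the median of the lower-numbered soyasaponin run lay beyond the 3 other diet medians in 72 of 75 members and that of the higher-numbered run in 73. With soyasaponin lowest the numbers were 62 and 74, and soyasaponin replicates 2 and 3 both belong to the lower-numbered run. Replicate 1 belongs to that run too, and by the midpoint it lay on the soyasaponin side in 66 of the 75 members.

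Which diet lay next to soyasaponin was not part of the rule. It was the combined diet, the other one holding soyasaponin, in 38 of 75 members with soyasaponin highest, control in 26 and prebiotic in 11. With soyasaponin lowest it was combined in 42, prebiotic in 23 and control in 10. Over all transcripts set apart by soyasaponin, combined was nearest in 38.7% (230 of 595) with soyasaponin highest and 44.2% (238 of 539) with it lowest. There control was nearest in 32.6% and prebiotic in 28.7% with soyasaponin highest, and in 30.4% and 25.4% with it lowest. Without prebiotic replicate 3 the rule chose a partly different set of 75 with soyasaponin highest, and combined was nearest in 25 of that set.

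Against control, prebiotic and combined fish each, fitted differences of soyasaponin had the sign of the list in all 75 members of both lists, a direction that the choice favours. With soyasaponin highest the median log2 fold changes were 0.30, 0.38 and 0.29, and with it lowest -0.68, -0.44 and -0.44. The median over all 17056 transcripts fitted was 0.02, -0.03 and -0.01. In limma with Benjamini-Hochberg adjustment over all 17056, 2 members were called higher and 19 lower against control at an adjusted p under 0.05. Of all transcripts 0.985% were called there, 0.276% higher and 0.709% lower, and 98 members were at an unadjusted p under 0.05 against 16.0% of all transcripts. Against prebiotic 1 was called higher and 1 lower, against 0.223% of all transcripts (0.129% higher, 0.0938% lower). Against combined 0 members were called by limma (0.0%), with 78 of the 150 and 5.47% of all transcripts at an unadjusted p under 0.05, 0 by edgeR and 1 by DESeq2. The interaction of both additions, whether soyasaponin acted differently with and without prebiotic, was called for 0 members by limma (0.0%), with 60 of 150 and 12.7% of all transcripts at an unadjusted p under 0.05, 0 by edgeR and 5 by DESeq2. The members were chosen for these contrasts and the counts are no evidence about them. No share over all transcripts is given for the edgeR and DESeq2 counts, so nothing is read from those either.

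The contrasts among control, prebiotic and combined fish do not set soyasaponin-diet fish against another diet, but they are not free of the rule. The rule used all 4 medians, kept those of the 3 diets closer together than the gap for most members, and divided by the SD of all 24 fish, which the fit also pools. Their p-values are therefore given with those of a fit without the soyasaponin fish. That fit takes the soyasaponin fish out of the pooled SD. The fish left in it still took part in the choice of members, so it does not free the contrasts from the rule. Prebiotic against control gave 1 of 150 members in limma, lower in prebiotic, where 1.82% of all 17056 transcripts were called and 0.897% were lower. Combined against control gave 1, lower in combined, where 3.24% were called and 1.37% were lower. Combined against prebiotic gave 2, higher in combined, where 3.81% were called and 2.73% were higher. The members' shares lay below the background and are no result about them. The first 2 contrasts share the control fish. The fitted difference from control was below 0 for prebiotic fish in 56 of the 75 members with soyasaponin lowest and for combined fish in 60, with median log2 fold changes of -0.15 and -0.18 where all transcripts had 0.03 and 0.01. Without prebiotic replicates 4 and 5 the prebiotic number was 54, with a median of -0.13. With soyasaponin highest the numbers below 0 were 40 and 27, with medians of -0.01 and 0.04, and 34 and 0.02 for prebiotic without those 2 fish. The numbers below 0 were not tested, and members measured in the same fish are not independent. No share below 0 over all transcripts is given beside them, so nothing is read from them.

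LABE_00012494-RA was the one member called against control in prebiotic and in combined fish, and it was of rank 12 with soyasaponin lowest. Control fish held 473 to 692 normalized counts with a median of 536. The median was 423 in prebiotic (297 to 457), 434 in combined (333 to 478) and 323 in soyasaponin fish (280.1 to 369). It fell by 0.48 on the log2 scale in prebiotic fish (SE 0.12, limma adjusted p = 0.0461) and by 0.46 in combined fish (SE 0.12, limma adjusted p = 0.0426), with 6 of 6 fish below the control median in each. In a fit without the soyasaponin fish, which leaves the fold changes as they are, neither call held (adjusted p = 0.0735 and 0.0624 in limma). Without prebiotic replicates 4 and 5 the prebiotic difference was -0.41 (limma adjusted p = 0.155). Control fish separated by title run here too, at 559 to 692 and 473 to 513. Prebiotic and control fish did not overlap, and combined and control fish did. The control median was the highest of the 4 and the soyasaponin median the lowest.

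Those calls depended on single fish. The limma adjusted p against control was 0.0502 to 0.104 for prebiotic without any 1 of control replicates 1, 2, 3 and 5, prebiotic replicates 1, 2, 4 and 5, soyasaponin replicates 1, 3, 5 and 6, or combined replicates 3, 5 and 6. For combined fish it was 0.0536 to 0.117 without any 1 of control replicates 1, 2 and 3 or combined replicates 2, 3, 4 and 5. Over all 36 alternatives the adjusted p ran from 0.00804 to 0.368 for prebiotic and from 0.00880 to 0.117 for combined. The sign was kept in each. The highest value for prebiotic came with the log2 size factor as a covariate, which gave 0.115 for combined.

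LABE_00046169-RA and LABE_00013042-RA, of ranks 13 and 38 with soyasaponin highest, were higher in combined than in prebiotic fish. LABE_00046169-RA had a median of 62.9 normalized counts in prebiotic (52.2 to 72.3) and 85.8 in combined fish (80.1 to 96.7), which did not overlap, with 72.8 in control (67.7 to 94.5) and 104 in soyasaponin fish (70.0 to 133). It rose by 0.49 on the log2 scale (SE 0.13, limma adjusted p = 0.0361). LABE_00013042-RA had 940.3 in prebiotic (796 to 1109) and 1264 in combined fish (1083 to 1808), with 1074 in control (968 to 1364) and 1509 in soyasaponin fish (1090.1 to 1709). It rose by 0.48 (SE 0.13, limma adjusted p = 0.0367), and the groups overlapped. In both, 6 of 6 combined fish lay above the prebiotic median, and the order of medians was prebiotic, control, combined, soyasaponin.

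Without the soyasaponin fish both adjusted p-values stayed under 0.05 (limma, 0.0271 and 0.0326), in a fit that is not free of the rule. Both calls also rested on single fish. The limma adjusted p of LABE_00046169-RA was 0.0538 to 0.0892 without any 1 of prebiotic replicates 1, 4 and 5 or combined replicates 1, 2, 3 and 5. For LABE_00013042-RA it was 0.0591 to 0.103 without any 1 of prebiotic replicates 2, 4 and 5 or combined replicates 2, 3 and 6. Without prebiotic replicates 4 and 5 together the adjusted p was 0.128 and 0.139, and with the log2 size factor as a covariate 0.0761 for both. Over all 36 alternatives it ran from 0.0162 to 0.128 and from 0.00886 to 0.139.

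Membership itself depended most on the soyasaponin fish, which the rule favours, since their median enters the gap of each member. The lists of the other diets were not put through such omissions. When 1 fish was left out and the rule applied again, 35 to 66 of the 75 members with soyasaponin highest and 49 to 68 with it lowest were chosen again. Without soyasaponin replicates 1 to 6 in turn the numbers were 45, 35, 44, 38, 43 and 49 with soyasaponin highest and 50, 50, 52, 51, 49 and 49 with it lowest. Without a fish of another diet at least 55 and 59 were chosen again. Under all 24 omissions, 10 members of the highest list and 27 of the lowest stayed in. Without soyasaponin replicates 2 and 3 together 25 and 41 stayed, and without prebiotic replicates 4 and 5 together 49 and 58. With diet means in place of medians 34 and 43 did.

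**Figure D5:**
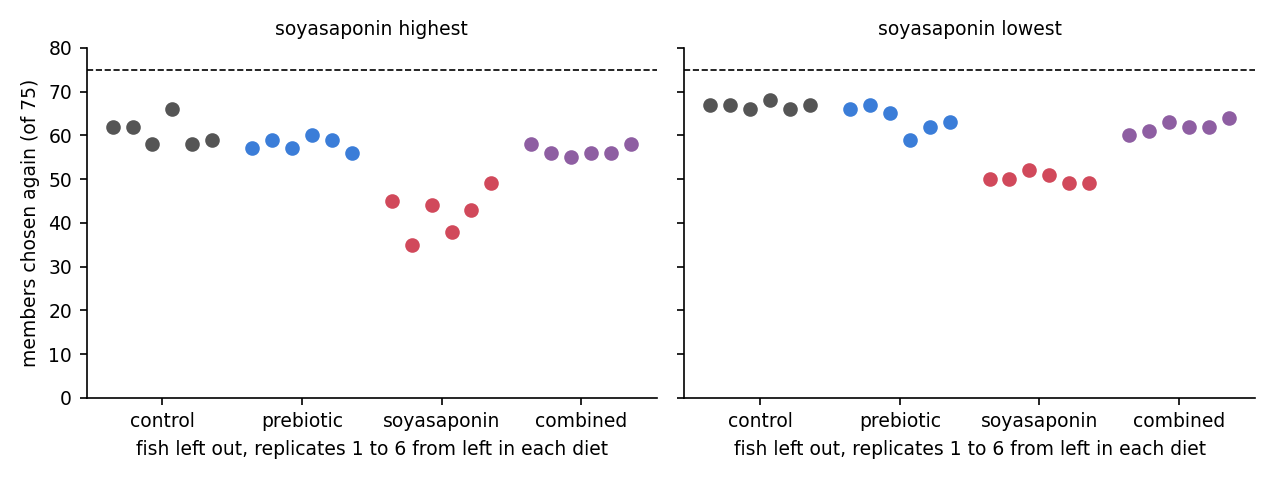
Number of the 75 members chosen again (y axis) when the fish on the x axis is left out, left for soyasaponin highest and right for soyasaponin lowest, with a dashed line at 75. Leaving out a soyasaponin fish leaves 35 to 49 in the left panel and 49 to 52 in the right, fewer than leaving out any fish of the other diets.

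Sequencing depth moved with diet in part. Soyasaponin libraries held a median of 10.4 M recovered reads (9.38 M to 11.2 M), against 9.44 M in control (8.42 M to 12.5 M), 9.04 M in prebiotic (8.63 M to 10.6 M) and 9.01 M in combined fish (8.55 M to 9.50 M). The difference in means was 1.28 M against combined (exact two-sided permutation p = 0.00649, adjusted over 3 comparisons 0.0195), 0.963 M against prebiotic (p = 0.0541, adjusted 0.0812) and 0.416 M against control (exact p = 0.558, adjusted 0.558). The median correlation of the members with the log2 size factor over all fish was 0.19 with soyasaponin highest and -0.21 with it lowest, and within diets 0.02 and -0.08. With all libraries thinned to the smallest total, 55 and 62 of the 75 members were chosen again. The median gaps of the 75 transcripts chosen then were 0.27 and 0.51.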

How the data were processed

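The deposited table gives, per transcript and fish, a signal: counts divided by one size factor per library by the authors, as read from the values. Whole reads were recovered, with the lowest nonzero value of a library taken as 1 read: 100% of 498024 values came out whole (within 1e-06), with 8.42 M to 12.5 M reads per library. The authors used DESeq2, featureCounts (Subread), TopHat2 and cutadapt, per the submitters' processing notes, and neither their versions nor a genome build is stated in the sources used here. Per the labels' protocols, libraries were stranded mRNA paired ends. Reads shared between near-identical transcripts were not examined. The reads of 60 same-diet library pairs differed beyond counting noise (chi-square 16.2 to 76.9 per degree of freedom), so no library was counted as a repeat.

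The rule was applied in Python 3.11.15 (pandas 2.3.3). Contrasts were fitted to log2(value + 1) of the 17056 transcripts with a mean of at least 10 with limma 3.58.1 (intensity trend, all 4 diets, two-sided, Benjamini-Hochberg over all, R 4.3.3). The pseudocount understates the fold change of low transcripts. Because the deposited values are not raw counts, edgeR 4.0.16 (quasi-likelihood) and DESeq2 1.42.0 on recovered reads were alternatives, beside other pseudocounts, filters, scalings, covariates and omissions. The fits and the rule were tested on simulated data with planted differences larger than most members showed. Differences of the usual size among members were not simulated. Members and lists were chosen with earlier results of these data known. Identifiers are given for the 2 members of highest score in each direction and for members called in the contrasts without soyasaponin fish. Replicate numbers follow record order and pair no fish, and p-values treat fish of a diet as independent although they shared tanks.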

Additional observations from a re-analysis of the deposited data

Results flagged for a closer look

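Within diets, 4 of 40 groups of 6 fish examined had 1 fish far from the other 5 by Dixon's ratio, where chance flags about 1 in 20 groups. In LABE_00028772-RA soyasaponin replicate 3 stood at 117 normalized counts, above the other 5 soyasaponin fish. In LABE_00012494-RA prebiotic replicate 4 stood at 297, below the other prebiotic fish. Prebiotic replicate 4 lay on the soyasaponin side in 41 of the 75 members with soyasaponin lowest, and control replicate 5 in 13, each above the rest of its diet. Over all 150 members and 4 diets, 48 of 600 such groups passed the critical value.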

How the results depend on the processing

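Counts of members chosen again by the rule moved by over 1.5 times under several settings. With soyasaponin highest they were 34 with diet means, 48 with a mean of at least 10, 46 with a mean of at least 200, 46 under quantile normalization, 49 without prebiotic replicates 4 and 5, and 25 without soyasaponin replicates 2 and 3. With soyasaponin lowest they were 43, 46 and 38 for the first 3 of these and 41 for the last. Omission of 1 fish gave 35 to 66 and 49 to 68. Among the 75 transcripts chosen anew each time, the median gaps were 0.25 to 0.35 and 0.44 to 0.60. Combined was the nearest diet in 25 to 45 and 33 to 49 of those transcripts. Filters change the pool that competes for 75 places; for the other settings the cause was not tested. The signed gap of the 4 leading members kept its direction under each setting. They were chosen for that gap in the same fish, so this describes the choice and supports nothing.

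Members called for prebiotic against control numbered 0 with no filter, with the log2 size factor as covariate, without the soyasaponin fish and without prebiotic replicates 4 and 5, 2 under quantile normalization and 4 in DESeq2, and 0 to 1 on omission of 1 fish. For combined against control they numbered 0 under quantile normalization, with the size factor and without the soyasaponin fish, 2 in edgeR and without prebiotic replicates 4 and 5, 3 with a block of title number runs, 5 in DESeq2 and 0 to 2 on omission. For combined against prebiotic they numbered 0 with the size factor and without prebiotic replicates 4 and 5, and 0 to 2 on omission. The cause was not tested. Against control and prebiotic, DESeq2 called 49 and 32 members in soyasaponin fish where limma called 21 and 2. The rule favoured calls in these soyasaponin contrasts. No share called over all transcripts is given here for any of these alternative settings, DESeq2 included. Nothing is therefore read from their counts or from how they differ from the main fit. The estimated correlation within the block was -0.04. No paired analysis was possible because the labels give no replicate numbers shared between diets. Thinning and the joint omissions were chosen after seeing the data. A library at 0 occurred in 3 members. In 2 of them soyasaponin replicate 4 was at 0, the deepest soyasaponin library (11.2 M reads).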
